A study of Mus musculus with 6 samples.

Results

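The constitutive proteasome subunit genes of the mouse were followed in CD45-positive cells sorted from the central nervous system. A gene was a member if its symbol was Psma, Psmb, Psmc or Psmd followed by digits alone, leaving out Psmb8, Psmb9 and Psmb10, which encode the immunoproteasome. This gave 36 of the 28692 genes in the count files. They comprised 8 alpha-ring and 8 beta-ring genes of the 20S core, 6 ATPases and 3 other subunits of the 19S base, 8 subunits of the 19S lid and 3 chaperones that help to assemble the 19S particle.

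The 26S proteasome degrades proteins that carry a ubiquitin tag. Its barrel, the 20S core, is a stack of alpha and beta rings whose Psmb5, Psmb6 and Psmb7 subunits cut the substrate, and its 19S particle binds the tagged protein, removes the tag and feeds the chain into the barrel by ATP-driven unfolding. Under interferon-gamma, Psmb8, Psmb9 and Psmb10 replace Psmb5, Psmb6 and Psmb7 in newly made cores, which changes the peptides offered on MHC class I.

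C57BL/6 mice of 2 genotypes, wild type (WT) and a knockout of the microRNA miR-155 (miR-155KO, here KO), were sampled on days 0, 13 and 21 of EAE (experimental autoimmune encephalomyelitis), the mouse model of multiple sclerosis. Each genotype and day was 1 library made from 5 mice, so there were 6 libraries and no replicate within a genotype and day. In all groups, living (DAPI-negative) CD45-positive cells were sorted after a Percoll gradient and sequenced by the 10x droplet method, which counts transcripts at their 3′ end through unique molecular identifiers (UMIs). Brain is the labelled tissue, and the protocol names spinal cord as well. The labels do not give the extent of the deleted allele or the agents used for induction, and they do not say whether day 0 mice were immunised. No label restricts the knockout to a cell type.

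The libraries held 6321841 to 24243660 UMIs, with a median of 3019 to 4368.5 UMIs per barcode, and 20007 of 20030 barcodes were kept. Mir155hg, from which miR-155 is processed, was counted 2, 45 and 59 times in WT on days 0, 13 and 21 and 0, 0 and 1 times in KO, which is the direction the labels give. Cells were assigned to a class by at least 4 markers of that class, which placed 78.5% of them. The other 5.54% to 29.1% of cells per library stayed without a class. In WT and KO this was 7.78% and 5.54% on day 0, 24.9% and 29.1% on day 13, and 29.1% and 15.8% on day 21. Between libraries, 207 cell barcodes occurred more than once, and any pair of libraries shared 5 to 32. Class names end in "-like" because they rest on markers alone.

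As miR-155 pairs with its targets through bases 2 to 8 of the mature strand, the seed is shown in capitals beside the stretches of the only members' 3′ untranslated regions (UTRs) that hold its perfect complement.
miR-155-5p, chr16:84714143-84714165, plus strand: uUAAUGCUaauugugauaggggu
Psmb1 3′ UTR, match at chr17:15476570-15476576, minus strand: ctcctacatcaAGCATTAatctggaaaac
Psmd5 3′ UTR, match at chr2:34851393-34851399, minus strand: tgcttttcagtAGCATTAtatatgtgtta
The capitals in both UTR lines mark the match AGCATTA. The miRNA sequence is RefSeq's on GRCm38.p6, and the UTRs are from GENCODE M21 on the same build (mm10). Of the 36 members, 2 (5.56%) held the match, against 1736 of 20996 protein-coding genes (8.27%). The members' UTRs were short, with a median of 315.5 bases against 953.5 bases for all genes. Psmb1 encodes a beta-ring subunit without a cutting site, and Psmd5 encodes a chaperone of the 19S base. A match is a description of the sequence and not a measured site.

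Promoters of 29 members, 250 bases before to 50 bases after the start, could be taken from RefSeq. Proteasome genes are known targets of the factor Nfe2l1, which acts through antioxidant response elements, so the core TGACNNNGC was searched on both strands. It was found in 5 of the 29 (17.2%), which were Psmb5, Psmb6, Psmc6, Psmd12 and Psmd9, and in 14% of the 27025 promoters of the table. Both catalytic genes among them are shown, with the match in capitals, because Psmb5 and Psmb6 recur in the results below.
Psmb5 promoter, chr14:54617946-54618245, minus strand, GRCm38.p6: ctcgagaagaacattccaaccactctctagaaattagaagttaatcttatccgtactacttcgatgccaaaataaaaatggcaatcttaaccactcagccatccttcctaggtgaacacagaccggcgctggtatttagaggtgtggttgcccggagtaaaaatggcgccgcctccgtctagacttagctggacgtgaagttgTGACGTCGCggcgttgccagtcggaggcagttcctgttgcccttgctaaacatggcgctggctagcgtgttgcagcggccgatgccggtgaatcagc
Psmb6 promoter, chr11:70525107-70525406, plus strand, GRCm38.p6: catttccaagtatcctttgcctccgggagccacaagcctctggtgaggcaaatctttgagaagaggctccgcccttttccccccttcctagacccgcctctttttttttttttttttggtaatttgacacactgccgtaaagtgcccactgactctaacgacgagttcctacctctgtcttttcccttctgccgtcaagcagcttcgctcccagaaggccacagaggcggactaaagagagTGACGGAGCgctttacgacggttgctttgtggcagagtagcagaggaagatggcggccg
The first base of the match lay at position -47 from the start in Psmb5 and at -9 in Psmb6. Among the other motifs searched on both strands, the ETS core CCGGAAG was in 10 of 29 members (34.5%) and in 9.93% of all promoters. Those members were Psma6, Psmc1, Psmc2, Psmc6, Psmd2, Psmd4, Psmd6, Psmd11, Psmd12 and Psmd13, of which Psma6 alone belongs to the 20S core. The NF-Y box CCAAT was in 41.4% of members and 41.1% of all. The interferon-stimulated response element was in 3 of 29 members (10.3%), 3.99% of all and 0 of 3 immunoproteasome genes. The gamma-activated sequence TTCNNNGAA was in 1 of 29 members (3.45%), 9.55% of all and 1 of 3 immunoproteasome genes. The site of NRF1, a different factor from Nfe2l1, was in 1 of 29 members (3.45%) and 1.07% of all.

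Of the 36 members, 35 were detected. Psmb11, the beta subunit of thymic cortical epithelium, had 0 UMIs in all libraries. Psma8, an alpha subunit of the testis, had 134 UMIs, or 0.888 to 2.53 CPM (UMIs of the gene per 1000000 UMIs) over all cells. The remaining 34 were detected in every library. Since each transcript is counted once by its 3′ end, CPM values can be set beside each other between genes without a length correction. Averaged over the 6 libraries, the highest member of each role was Psma7 in the alpha ring (406 CPM), Psmb1 in the beta ring (373), Psmc3 among the ATPases (127), Psmd4, a ubiquitin receptor, among the other base subunits (151), Psmd8 in the lid (174) and Psmd10, which chaperones an ATPase, among the chaperones (42.2). Apart from Psma8 and Psmb11, each 20S gene averaged from 119 CPM (Psmb7) to 406 CPM, and 19S particle genes averaged from 50.6 CPM (Psmd3) to 174 CPM. On mm10 with GENCODE M21, the genes with full values lie at chr2:180036374-180042433 (Psma7), chr17:15475021-15499751 (Psmb1), chr3:94884093-94886961 (Psmb4), chr14:54614119-54618022 (Psmb5), chr11:70525367-70527858 (Psmb6), chr2:38588036-38644087 (Psmb7), chr5:21785283-21803787 (Psmc2), chr2:91054009-91066369 (Psmc3), chr3:95032694-95042614 (Psmd4), chr7:29174188-29180701 (Psmd8) and chrX:140948429-140956728 (Psmd10).

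Averaged over libraries, the summed members took the largest shares of UMIs in conventional dendritic-like and monocyte/macrophage-like cells and the smallest in neutrophil-like cells. In the order WT and KO of day 0, WT and KO of day 13 and WT and KO of day 21, microglia-like cells gave 0.425%, 0.416%, 0.435%, 0.484%, 0.383% and 0.343% of their UMIs to these genes. Monocyte/macrophage-like cells gave 0.656%, 0.667%, 0.616%, 0.627%, 0.610% and 0.604% in the same order. The lowest of these shares, 0.604%, lay above the highest of microglia-like cells, 0.484%.

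Conventional dendritic-like cells, which reached 50 cells in 3 libraries, gave 0.693% in WT and 0.656% in KO on day 13 and 0.663% in WT on day 21. Neutrophil-like cells gave 0.242%, 0.203%, 0.322%, 0.323%, 0.274% and 0.214%, so that every one of these shares was below the lowest of microglia-like cells. T-like cells gave 0.447% and 0.414% on day 0, 0.626% and 0.624% on day 13 and 0.530% and 0.489% on day 21. Both day 13 libraries were above both day 21 libraries, which were above both day 0 libraries, and the WT share of day 13 exceeded that of monocyte/macrophage-like cells in the same library. B-like cells had the opposite order of day 0, with 0.585% and 0.496% against 0.393%, 0.395%, 0.375% and 0.382% later. Shares of NK-like cells, in 5 libraries, stayed between 0.533% and 0.566%. These are shares of all UMIs of a class, so a class that spends many UMIs on a few other genes has less left for every member.

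**Figure D1:**
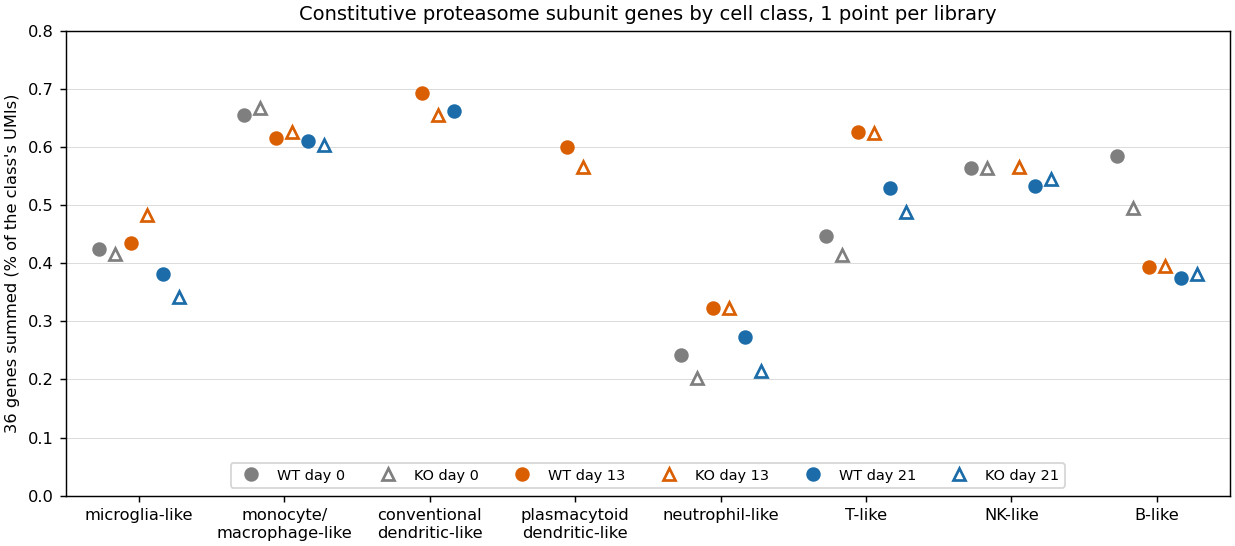
Share of a class's UMIs held by the 36 genes (percent, vertical axis) for 8 marker-gated classes (horizontal axis). Each point is 1 library, filled circles WT and open triangles KO, coloured by day. Monocyte/macrophage-like points lie between 0.604% and 0.667%, microglia-like points between 0.343% and 0.484%, and neutrophil-like points between 0.203% and 0.323%.

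The balance between core and particle genes was lowest in microglia-like cells of day 0. Dividing the 20S UMIs by the 19S particle UMIs of the same cells removes the scaling of the library. In microglia-like cells this ratio was 1.28 in WT and 1.27 in KO on day 0, 1.77 and 1.95 on day 13, and 1.88 and 1.58 on day 21. Both day 0 libraries lay below all 4 later libraries, and WT and KO of a day were closest on day 0. With 2 libraries a day no exact test of this order can pass 0.05, and the ratio is given as a description.

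Other classes had more core UMIs per particle UMI. Monocyte/macrophage-like cells stood at 2.25, 2.20, 2.52, 2.57, 2.66 and 2.73 in the same order of libraries, and conventional dendritic-like cells at 2.51, 2.58 and 2.49. Neutrophil-like cells ranged from 2.09 to 2.55, T-like cells from 1.91 to 2.30, and B-like cells from 1.64 to 2.14. In monocyte/macrophage-like and B-like cells, too, both day 0 libraries lay below all 4 later ones. NK-like cells stood at 1.61 and 1.96 on day 0 and at 1.97 to 2.33 in 3 later libraries.

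**Figure D2:**
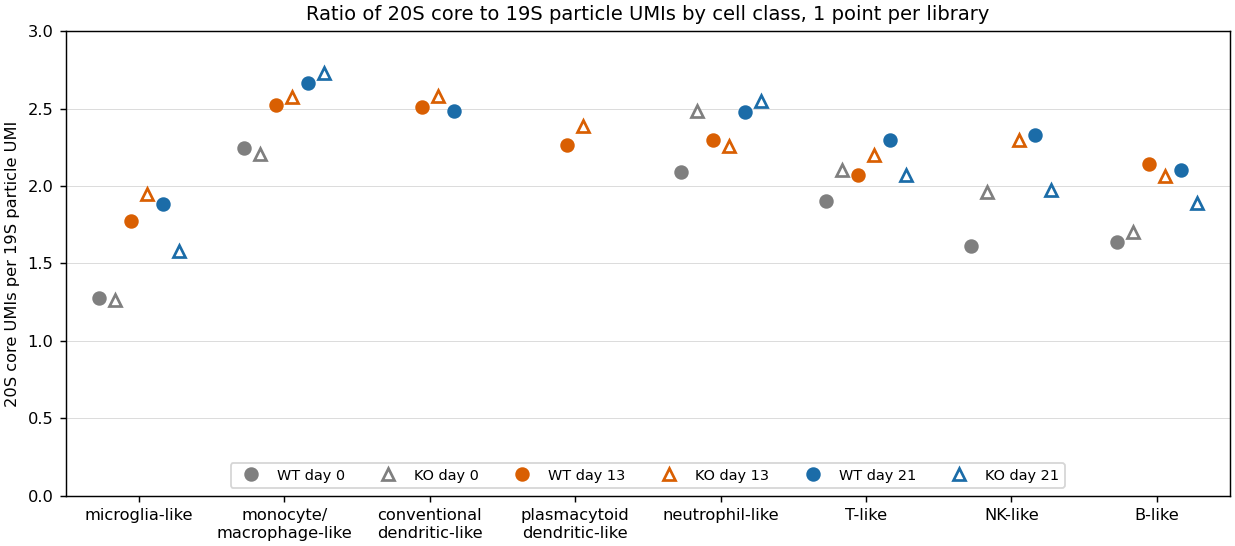
UMIs of the 20S core genes per UMI of the 19S particle genes (vertical axis) by class (horizontal axis), 1 point per library, filled circles WT and open triangles KO, coloured by day. The microglia-like libraries of day 0 sit at 1.28 and 1.27, and the 4 later ones between 1.58 and 1.95.

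Microglia-like cells were compared between days, which asks how resident cells differ between day 0 and the course of EAE. Relative to day 0, 10 members were higher on day 13 and 1 was lower, among 35 tested. Of the 10, 9 were 20S genes: Psma1, Psma4, Psma5, Psma7, Psmb1, Psmb2, Psmb4, Psmb5 and Psmb7. The exception was the lid gene Psmd8, and the gene that fell was the ATPase Psmc2. Over all genes, 26.1% of 10487 passed the same test, 14.7% upward and 11.4% downward. The test was edgeR's quasi-likelihood test with Benjamini-Hochberg adjustment over all genes tested.

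Psmb4, a structural beta subunit, stood at 108 CPM in WT and 91.3 in KO on day 0, 153 and 191 on day 13, and 138 and 99.7 on day 21. Both day 13 libraries lay above both day 0 libraries, and the KO library of day 21 was back among them. Its log2 fold change on day 13 was 1.02 (SE 0.20, edgeR adjusted p = 0.00726). For Psmb1 the levels were 232 and 196 CPM on day 0, 312 and 330.0 on day 13, and 315 and 249 on day 21, so all later libraries were above both of day 0. It rose by 0.82 on the log2 scale on day 13 (SE 0.17, edgeR adjusted p = 0.00827). Psma7, which forms part of the alpha ring, was at 217 and 207 CPM, then 265 and 360.1, then 233 and 217. The KO library of day 13 was the highest of the 6, and the fold change on day 13 was 0.78 (log2, SE 0.18, edgeR adjusted p = 0.015).

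The alpha-ring genes Psma5 and Psma4 were higher on day 13 by 0.77 (SE 0.19, edgeR adjusted p = 0.0188) and 0.69 (SE 0.18, edgeR adjusted p = 0.0224), and the beta-ring gene Psmb2 by 0.64 (SE 0.18, edgeR adjusted p = 0.0317), all log2. Among the catalytic genes, Psmb5 stood at 143 and 141 CPM on day 0, 163 and 184 on day 13, and 147 and 123 on day 21. It rose by 0.52 on day 13 (log2, SE 0.16, edgeR adjusted p = 0.0439). Psmb7 was at 101 and 102 CPM, then 114 and 134, then 102 and 87.6. Its fold change on day 13 was 0.51 (log2, SE 0.16, edgeR adjusted p = 0.0439). Psmb6, the third catalytic gene, was at 199.6 and 203 CPM, then 213 and 224, then 156 and 174, and did not pass the test on day 13 (log2 0.35, SE 0.14, edgeR adjusted p = 0.0977).

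Of 17 particle genes tested, 1 rose and 1 fell. Psmc2, 1 of the 6 ATPases of the base ring, stood at 149.6 and 144 CPM on day 0, 79.0 and 90.3 on day 13, and 73.6 and 80.5 on day 21. All 4 later libraries lay far below both of day 0, and the gene fell by 0.57 on day 13 (log2, SE 0.14, edgeR adjusted p = 0.0192). Psmd8, of the lid, was at 138 and 138 CPM, then 165 and 178, then 121 and 126, and rose by 0.54 on day 13 (log2, SE 0.14, edgeR adjusted p = 0.0212). Psmc3 stood at 156 and 158 CPM, then 138 and 141, then 95.1 and 117, and Psmd4 at 151 and 140.2, then 142 and 143, then 122 and 116. Neither passed the test on day 13. The chaperone Psmd10 stayed between 34.9 and 39.9 CPM in all 6 libraries. Split by part, the median log2 fold change on day 13 was 0.52 over 15 core genes, 0.04 over 17 particle genes and 0.12 over 3 chaperones, against -0.02 over all genes tested.

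**Figure D3:**
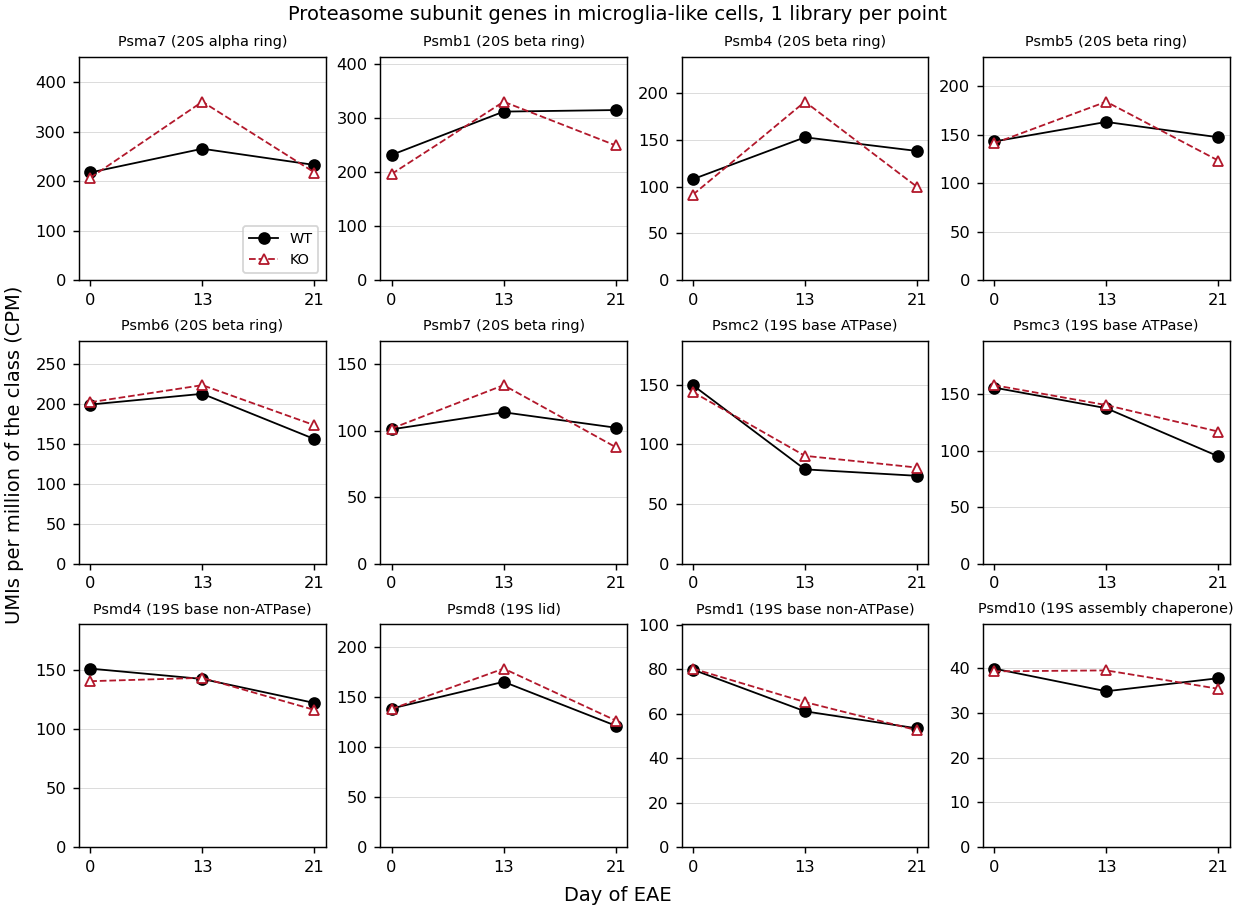
CPM (vertical axis, from 0) of 12 members in microglia-like cells on days 0, 13 and 21 (horizontal axis), 1 library per point, WT as filled circles and KO as open triangles. Psmb4 goes from 108 and 91.3 to 153 and 191 between days 0 and 13, and Psmc2 from 149.6 and 144 to 79.0 and 90.3.

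On day 21 against day 0, 2 of 35 members passed, with 10.8% of all genes, 7.71% upward and 3.06% downward. Psmb1 was higher by 0.65 (log2, SE 0.17, edgeR adjusted p = 0.0416) and Psmc2 lower, by -0.67 (SE 0.14, edgeR adjusted p = 0.0196). Both day contrasts share the day 0 libraries, so their calls are not separate evidence. Between day 21 and day 13, edgeR called 0 members and 0% of all genes, while 12 members and 1341 genes had an unadjusted p under 0.05. DESeq2 called 0 members and 64 genes there. The members' median was -0.32 (log2) and that of all genes 0.02.

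The day counts depended on single libraries. The share of all genes passing without a given library is not given here, so those member counts cannot be set against it. Without the WT or the KO library of day 0, 0 members passed on day 13, and 3 passed without the KO library of day 13, whereas 18 passed without either day 21 library. Scaling by total UMIs in place of TMM moved the median of all genes on day 13 from -0.02 to -0.25. Then 8 members passed, 4 upward (Psmb4, Psmb1, Psma7, Psma5) and 4 downward, with 32.9% of all genes, and 12 passed on day 21, all downward, with 19.6%. Psmc2 was lower under both scalings, at -0.80 on day 13 and -0.93 on day 21 with total UMIs. For day 21 the count was 0 without either day 0 library, 4 without either day 13 library or the WT library of day 21, and 8 without the KO library of day 21. For day 21 against 13, 3 members passed without the WT library of day 13 and 11 without the WT library of day 21.

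Markers moved with day too. In microglia-like cells the 13 microglia markers summed to 38382 and 39398 CPM on day 0, 17084 and 13453 on day 13, and 16634 and 26002 on day 21, with none of them at 0 in any library. The 11 monocyte/macrophage markers summed to 149 and 145 CPM on day 0, 698 and 748 on day 13, and 488 and 273 on day 21, with at most 1 of them at 0, where monocyte/macrophage-like cells held 7887 to 9037. The T-cell markers summed to 16.1 to 127 CPM in 5 of the libraries and to 458 in WT on day 21. Their part in the result was not tested. The sample titles begin with a number that is common to WT and KO of a day and differs between days, and if it marks a batch, batch and day cannot be told apart.

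The pathway around the members was read from lists. All 3 immunoproteasome genes rose in microglia-like cells on day 13: Psmb8 by 1.93 (SE 0.23), Psmb9 by 1.78 (SE 0.21) and Psmb10 by 1.32 (SE 0.21), log2. Of 5 activators and inhibitors, the interferon-induced cap genes Psme1 (2.22, SE 0.22) and Psme2 (1.83, SE 0.20) rose. Of 5 assembly chaperones of the core, Pomp (1.08, SE 0.17) and Psmg4 (1.30, SE 0.19) rose. From the list on ubiquitin supply and the Nfe2l1 axis, which is reported here only in part, the ubiquitin fusion gene Rps27a (1.40, SE 0.18) and the protease Ddi2 (0.52, SE 0.16) rose, and the polyubiquitin gene Ubb fell (-0.59, SE 0.17). The edgeR adjusted p of these genes ran from 0.00032 (Psme1) to 0.0407 (Ddi2).

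Transcripts of each catalytic gene and its immunoproteasome counterpart can be set beside each other as shares of UMIs within a pair. The subunits present in assembled proteasomes were not measured. Among the UMIs of Psmb5 and Psmb8 in microglia-like cells, Psmb8 held 66.7% and 65.1% on day 0, 83.6% and 83.6% on day 13 and 82.4% and 77.4% on day 21. For Psmb6 and Psmb9, the Psmb9 share went from 29.6% and 31.1% to 54.2% and 53.8%, then 58.8% and 45.2%. For Psmb7 and Psmb10 the shares of Psmb10 were 58.4% and 56.2%, then 69.4% and 70.4%, then 66.6% and 61.9%. In all 3 pairs every later library lay above both day 0 libraries. Neutrophil-like cells kept the highest constitutive share in the third pair, since Psmb10 held 23.8% to 39.0% of its UMIs there against 53.4% to 70.7% in conventional dendritic-like cells.

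Classes were then compared with microglia-like cells of the same library, as sums paired by library. These 5 comparisons share the microglia-like sums, and their values are side by side, not independent. Monocyte/macrophage-like cells differed most in the 20S genes: 24 of 35 members were higher and 1 was lower, where 26.3% and 33.6% of all 10773 genes passed in each direction and 59.9% in either. All 7 beta-ring genes tested and 7 of 8 alpha-ring genes were higher, with a median log2 difference of 0.83 over the core genes, 0.33 over the particle genes and -0.14 over all genes.

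Psma7 stood out among the members. Its 6 values in monocyte/macrophage-like cells were 906, 1011, 720.0, 739, 801 and 819.8 CPM, against 207 to 360.1 in microglia-like cells, and the groups did not overlap. The difference was 1.93 (log2, SE 0.17, edgeR adjusted p = 9.39e-06), with the same sign in 6 of 6 libraries. Psmb3, a structural beta subunit, was at 305 to 403 CPM against 134 to 179.6, a difference of 1.20 (SE 0.12, edgeR adjusted p = 1.67e-05). The next largest were Psma4 (1.13, SE 0.12), Psmd8 (1.09, SE 0.11), Psma2 (1.04, SE 0.11) and Psmb1 (1.02, SE 0.13), with edgeR adjusted p from 2.34e-05 to 9.02e-05. The catalytic genes Psmb5, Psmb7 and Psmb6 were higher by 0.89 (SE 0.11), 0.72 (SE 0.12) and 0.65 (SE 0.10). Psmd12, a scaffold of the lid, was the single lower member, at 46.8 to 59.8 CPM against 67.1 to 93.2, and differed by -0.44 (SE 0.09, edgeR adjusted p = 0.00237). Scaled by total UMIs, 19 members were higher and 3 lower, with 61.7% of all genes passing in either direction.

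Conventional dendritic-like cells, from 3 libraries of 52 to 69 cells each, showed a like set of values. Their monocyte/macrophage markers summed to 1250 to 1863 CPM beside 2876 to 3881 CPM of their own markers. The part of this overlap in the likeness was not tested. Among 34 members tested, 19 were higher and 1 lower, with 44.8% of all genes passing, 21% upward and 23.8% downward. Psma7 was at 815, 724 and 693 CPM, a difference of 1.42 (log2, SE 0.14, edgeR adjusted p = 1.41e-05). Psma4 (1.03, SE 0.14) and the catalytic genes Psmb7 (0.89, SE 0.17) and Psmb6 (0.85, SE 0.14) followed, with Psmb3 at 0.86 (SE 0.14) and the ATPase Psmc4 at 0.81 (SE 0.15). Psmd12 again was the lower one (-0.52, SE 0.19, edgeR adjusted p = 0.0493). DESeq2 called 10 members, against 20 by edgeR. It called 14.9% of 14305 genes, a larger set than edgeR tested.

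In T-like cells, 11 members were higher than in microglia-like cells and 1 was lower, among 34 tested, with 62.2% of all genes passing, 28.8% upward and 33.4% downward. Psmb1 ran from 443 to 618 CPM against 196 to 330.0 and was higher by 1.04 (log2, SE 0.13, edgeR adjusted p = 3.54e-05), and Psmb3 was higher by 1.07 (SE 0.12, edgeR adjusted p = 8.88e-06), both in 6 of 6 libraries. Psma2, Psma7, the ubiquitin receptor Psmd4 and the catalytic Psmb5 followed at 0.85 (SE 0.11), 0.68 (SE 0.12), 0.63 (SE 0.11) and 0.44 (SE 0.11). The lower member was Psmd1, the largest base scaffold, at -0.45 (SE 0.14, edgeR adjusted p = 0.0141). With 12 of 34 called, the members passed less often than the 62.2% of all genes, a difference that was not tested.

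B-like cells were mixed, with 5 members higher and 5 lower among 34 and 53.2% of all genes passing, 23.4% upward and 29.8% downward. Psmb1, at 442 to 551 CPM, was higher by 0.96 (log2, SE 0.12, edgeR adjusted p = 2.92e-05), and Psmd14, the deubiquitinase of the lid, by 0.82 (SE 0.14, edgeR adjusted p = 0.0004), each in 6 of 6 libraries. Psma2 (0.51, SE 0.14), Psmb3 (0.44, SE 0.13) and Psma7 (0.36, SE 0.12) were higher in 5 of 6. The lower ones were Psmd6, Psmd1, Psmd3, Psma5 and Psmd7, at -0.73, -0.70, -0.59, -0.39 and -0.34 with SE from 0.13 to 0.18. Scaled by total UMIs, 2 were higher and 6 lower, with 52.2% of all genes passing in either direction. Without the KO library of day 21, 5 members passed in all, and the share of all genes passing in that fit is not given here.

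In neutrophil-like cells the direction turned on the scaling. On CPM the members were low there: Psmb1 was at 115 to 231 CPM against 196 to 330.0 in microglia-like cells and lower in 6 of 6 libraries, and Psmd7, of the lid, was at 13.1 to 33.6 against 80.3 to 128. With TMM scaling, 19 of 34 members were higher and 2 lower, with 72.2% of all genes passing, 30.9% upward and 41.3% downward. With total UMIs, 1 was higher and 25 lower, with 86.4% of all genes passing, and the median of all genes went from -0.25 to -1.47. DESeq2 gave 16 higher and 8 lower, with 47.1% of 16152 genes passing in either direction. The 13 neutrophil markers alone summed to 104037 to 133525 CPM in this class. Under both scalings Psmb3 was higher (1.53, SE 0.15 with TMM and 0.32, SE 0.14 with total UMIs), and Psmd7 (-0.94, SE 0.16 and -2.16, SE 0.17) and Psmd3 (-0.75, SE 0.21 and -1.97, SE 0.23) were lower. Psmd10 and Psma2, at 1.41 and 1.40 with TMM, did not pass with total UMIs, and Psmd13, Psmb5 and Psma6 changed sign, from 1.15, 0.99 and 0.95 to -0.07, -0.23 and -0.27.

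**Figure D4:**
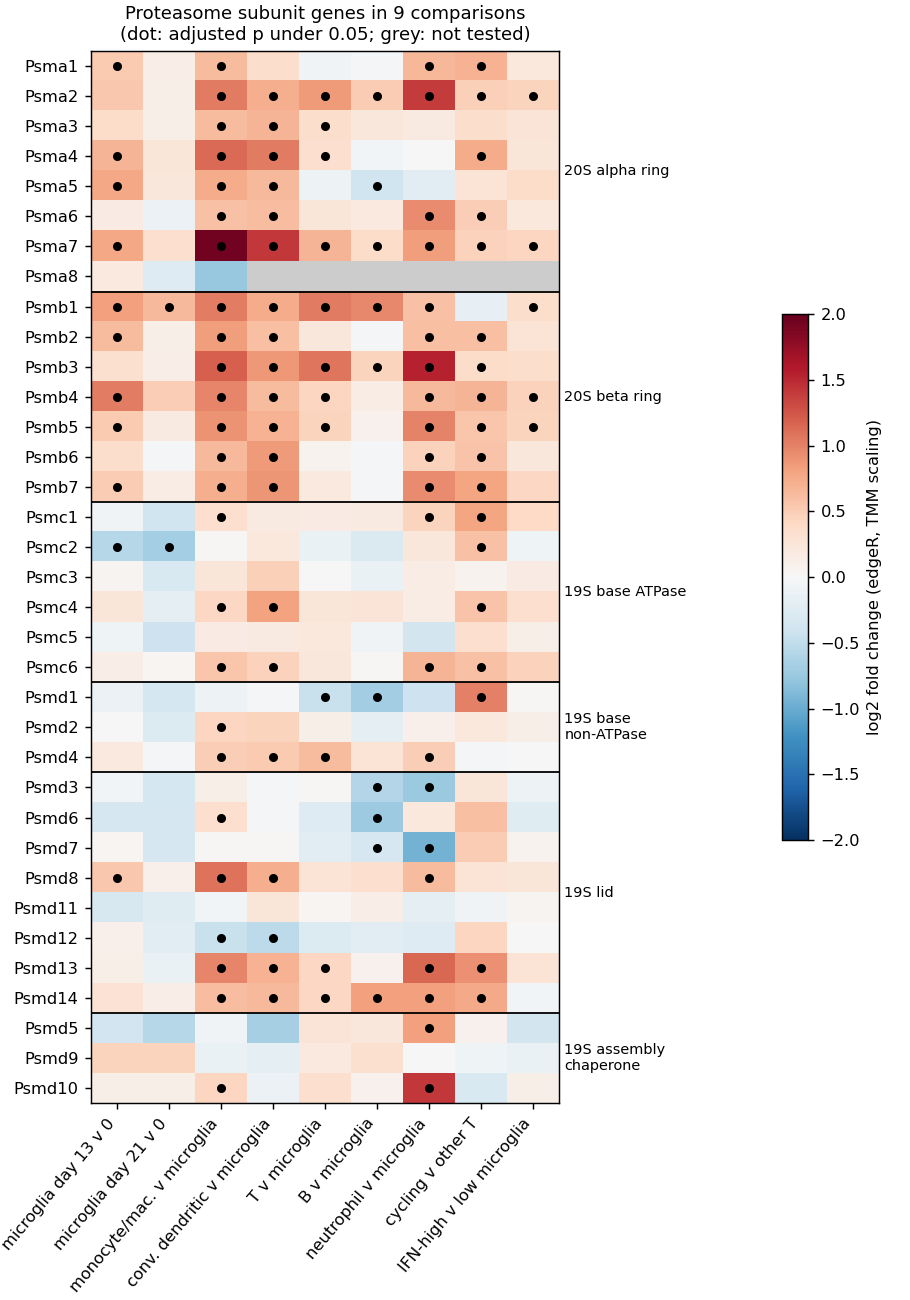
Log2 fold change with TMM scaling (colour, red higher and blue lower in the first-named group) of 35 members (rows, by role) in 9 comparisons (columns). Dots mark an adjusted p under 0.05 and grey cells were not tested. In monocyte/macrophage-like cells 24 members carry a dot upward, while the neutrophil column turns from 19 higher and 2 lower to 1 higher and 25 lower when total UMIs are used.

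T-like cells that carried at least 3 genes of the mitotic cell cycle were set against T-like cells with 0 of them, within 3 libraries (WT and KO of day 13 and WT of day 21). Of 34 members, 18 were higher in the cycling cells and 0 lower, with 24.9% of all genes passing, 13.8% upward and 11.1% downward. Both rings and the particle were represented: 11 of 14 core genes and 7 of 17 particle genes were higher, with medians of 0.53 and 0.50 (log2) against -0.02 over all genes. The catalytic genes were among them. In the order of those libraries, Psmb7 was at 203, 244 and 188 CPM in cycling cells against 133, 101 and 102, and differed by 0.79 (log2, SE 0.17, edgeR adjusted p = 0.00124). Each cycling value lay above each of the others.

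Psmd1 showed the largest difference, 1.01 (log2, SE 0.27, edgeR adjusted p = 0.00701), with 83.2, 62.6 and 73.1 CPM in cycling cells against 53.7, 37.4 and 23.4. Psmd13, of the lid, followed at 0.92 (SE 0.21), the ATPase Psmc1 at 0.78 (SE 0.23), Psmd14 at 0.75 (SE 0.21) and Psma4 at 0.74 (SE 0.17). Psmb5 (0.56, SE 0.15) and Psmb6 (0.57, SE 0.15) were higher as well. Psmb1, the highest beta-ring gene, did not pass, at 575, 581 and 590 CPM in cycling cells and 663, 578 and 562 in the others. Pomp (0.56, SE 0.14), 1 of 5 assembly chaperones tested, and Psme3 (0.71, SE 0.24), 1 of 4 activators and inhibitors tested, were higher too. So were the proteasome-bound Uchl5 (0.84, SE 0.23) and Shfm1 (0.38, SE 0.14), while Rps27a (-0.40, SE 0.07) was lower. Of the 3 immunoproteasome genes, Psmb9 alone passed (0.67, SE 0.14). Psmb8 was at 1257, 1506 and 1180 CPM in cycling cells and 1118, 1046 and 1038 in the others. Psmb10 was at 268, 344 and 204 CPM in cycling cells and 294, 264 and 278 in the others. Cycling cells were deeper, with medians of 5095 to 7591 UMIs per cell against 2143 to 2771.5. As an alternative, T-like cells were thinned to 1400 UMIs for the split alone, and their full UMIs were summed and tested. The gap in depth stayed, with medians of 5515 to 7813 UMIs per cell against 2268 to 3052. With that split, 19 members were higher, 16 of them among the 18. The share of all genes passing in the thinned split is not given here. DESeq2 called 0 members here and 372 genes (2.82%). By edgeR, 9 and 11 members passed without the WT or the KO library of day 13, and 8 without the WT library of day 21. For those fits, too, the share of all genes passing is not given here.

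Microglia-like cells with at least 3 genes of an interferon-gamma list were set against those with at most 1, within the WT libraries of days 13 and 21 and the KO library of day 21. The KO library of day 13 had too few cells on the low side, and the comparison was limited to days 13 and 21 by design, although both day 0 libraries had enough cells. Of 34 members, 5 were higher and 0 lower, with 7.31% of all genes passing, 4.99% upward and 2.32% downward. All 5 were 20S genes: Psmb4 (log2 0.45, SE 0.13), Psmb5 (0.45, SE 0.13), Psma2 (0.45, SE 0.12), Psma7 (0.43, SE 0.11) and Psmb1 (0.34, SE 0.11), with edgeR adjusted p from 0.00659 to 0.033. Psmb5 stood at 174, 186 and 139 CPM on the high side and at 132, 106 and 116 on the low side, without overlap. The median was 0.35 over 14 core genes and 0.08 over 17 particle genes. With both day 0 libraries added, an alternative chosen after seeing the data, 1 member passed, Psma7 (log2 0.32, SE 0.09, edgeR adjusted p = 0.0391), with 421 of 8758 genes. On day 0 the 5 genes did not share 1 direction. Psma7 was higher on the high side in both libraries, at 237 against 217 CPM in WT and 220 against 203 in KO. Psmb5 was higher in both too, at 163 against 141 in WT and 145 against 141 in KO. Psma2 was lower in both, at 153 against 165 CPM in WT and 151 against 165 in KO. Psmb1 was lower in KO (156 against 199.7 CPM) and higher in WT (257 against 228). Psmb4 was lower in WT (99.4 against 109) and higher in KO (113 against 87.1).

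Psmb8, Psmb9 and Psmb10 were higher by 0.60, 0.66 and 0.59 (log2) in the same cells. Psme1 and Psme2, 2 of 5 activators and inhibitors tested, were higher by 0.47 and 0.78. Interferon-high cells had medians of 3043, 2588 and 3355 UMIs per cell, and the low side 2357.5, 1939 and 2554. The count of members was 0 by DESeq2, which called 173 genes (1.21%), and 0 without the WT library of day 21. It was 3, with 1 gene shared, when the split was made on thinned cells and their full UMIs were summed. For the fit without that library and the thinned split, the share of all genes passing is not given here. Those member counts cannot be set against it.

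Genotype was tested within a class over the 3 days, with day as a block, to ask whether the members differ without miR-155. No member passed in microglia-like, T-like, monocyte/macrophage-like or neutrophil-like cells (0 of 35, 0 of 34, 0 of 34 and 0 of 34), by edgeR or by DESeq2. Few genes passed at all by edgeR, at 0.00954%, 0.373%, 0% and 0.0305% of those tested. At an unadjusted p under 0.05 there were 0, 0, 0 and 1 members, against 282, 397, 371 and 512 genes. The 1 member was Psmd14 in neutrophil-like cells, with a log2 difference of KO to WT of -0.50 (SE 0.21, edgeR adjusted p = 0.599), lower in 3 of 3 days. The members' medians were -0.01, -0.02, -0.01 and -0.05 (log2), with a median SE of 0.13, 0.16, 0.13 and 0.18. Replication came only from the 3 days, so a difference that changes with day adds to the error. On simulated counts with the same design in microglia-like cells, 20.8% of 1.5-fold changes and 75.4% of 2-fold changes were called. Those counts had a fixed dispersion of 0.02 for every gene, and libraries differed only in depth and in the changes put in. The spread of the real libraries was not matched, so these percentages do not measure the power of the genotype tests.

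Psmb1 and Psmd5, the members with a seed match, did not pass in any of these classes. Psmb1 differed between KO and WT by -0.20 (log2, SE 0.14) in microglia-like cells, -0.01 (SE 0.12) in T-like cells and -0.10 (SE 0.11) in monocyte/macrophage-like cells and -0.17 (SE 0.14) in neutrophil-like cells. For Psmd5 the values were 0.03 (SE 0.14), 0.03 (SE 0.27), -0.02 (SE 0.22) and 0.31 (SE 0.26) in the same order.

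Within a day, 1 KO library stood against 1 WT library, and intervals cover counting error only. In microglia-like cells the summed members had a KO to WT ratio of 0.979 (95% interval 0.959 to 0.999) on day 0, 1.11 (1.08 to 1.14) on day 13 and 0.896 (0.870 to 0.923) on day 21. No member was 1.5-fold apart on any of these days (0 of 34), where 2.41%, 8.08% and 16.3% of measured genes were. Psma7 was the clearest on day 13, with 360.1 CPM in KO and 265 in WT, a ratio of 1.36 (1.22 to 1.51). On day 21 Psma5 had a ratio of 0.694 (0.589 to 0.820), at 93.6 and 135 CPM, and Psmb4 of 0.722 (0.615 to 0.851), at 99.7 and 138 CPM. On day 13, 30 of 34 members had a ratio above 1, and on day 21 10 did. The median log2 ratio on day 13 was 0.14 over the members and 0.02 over all measured genes. For day 21 these medians were -0.09 and 0.07.

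Neutrophil-like cells had ratios of 0.839 (0.768 to 0.915) and 0.784 (0.756 to 0.812) on days 0 and 21, while the interval of day 13 ran from 0.965 to 1.04. On day 21 all 34 members were lower in KO, with a median of -0.37 (log2), where the median of all genes was -0.21. In T-like cells the ratios were 0.925 (0.858 to 0.997), 0.998 (0.967 to 1.03) and 0.923 (0.887 to 0.959), and in monocyte/macrophage-like cells 1.02 (0.967 to 1.07), 1.02 (0.998 to 1.04) and 0.990 (0.967 to 1.01). B-like cells had 0.847 (0.784 to 0.915), 1.01 (0.962 to 1.05) and 1.02 (0.955 to 1.09). Over all cells together the ratio on day 21 was 0.860 (0.851 to 0.868). The mix of classes differed as well, with 1535394 of 24234719 UMIs in microglia-like cells in WT and 5366046 of 15498011 in KO, and its part in that ratio was not tested.

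**Figure D5:**
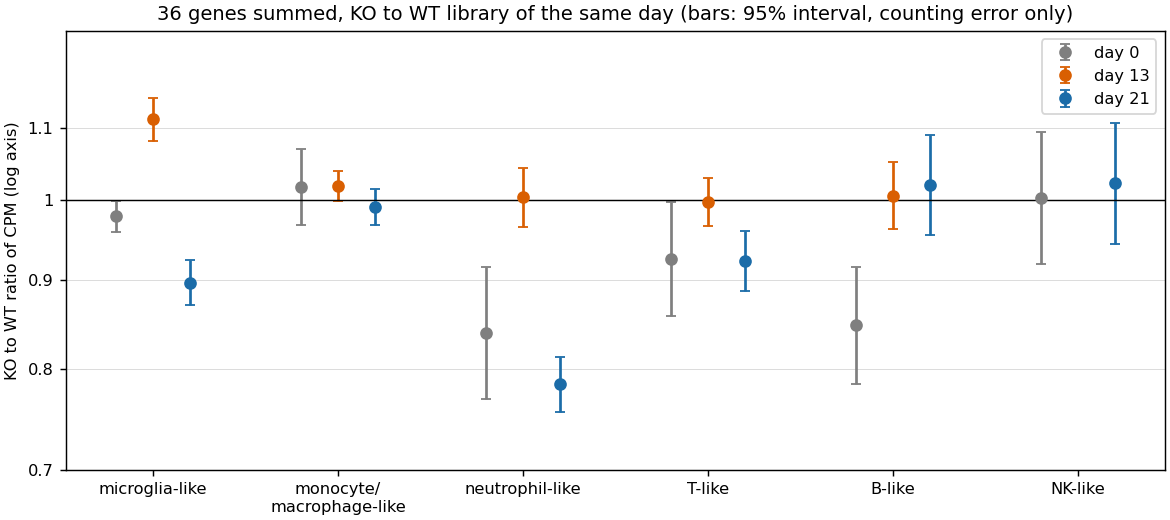
KO to WT ratio of the summed members' CPM within a day (vertical log axis) in 6 classes (horizontal axis), coloured by day; bars are 95% intervals for counting error and each point is 1 library against 1. Microglia-like cells lie at 0.979, 1.11 and 0.896 on days 0, 13 and 21, and monocyte/macrophage-like cells between 0.990 and 1.02.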

How the data were processed

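The deposited files hold raw UMI counts per gene and barcode, with no normalization, per the file headers and values. Cell Ranger 2.0.2 and the build mm10 are named in the submitters' processing notes. How reads shared with processed pseudogenes were counted is not given in the sources used here. Of 20030 barcodes, 23 exceeded 10% mitochondrial UMIs and 0 had fewer than 200 genes, which left 20007. A cell entered a class with at least 4 distinct markers, a lead of at least 2 over the next class and fewer than 5 markers of any other; dendritic cells had to be level with or ahead of the monocyte list. The thresholds were set after seeing the data. No doublet caller was run.

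UMIs were summed per library and class with 50 or more cells (20 per side for cycling cells) and tested with edgeR 4.0.16 (glmQLFTest, TMM, filterByExpr), all genes together, Benjamini-Hochberg threshold 0.05; DESeq2 1.42.0, total UMI scaling, no low-count filter, 5 markers, thinning, left-out libraries and, added after seeing the data, day 0 libraries in the interferon split were alternatives. Thinning decided only on which side of a split a cell fell, and its full UMIs were summed. Genotype was fitted with day, day with genotype, and class with library as covariate. Nothing in the labels tells biological from technical spread within a group, so p-values measure the spread between these libraries. Within a day, members at 10 CPM or more in either library counted as measured, with a pseudocount of 1 and exact conditional intervals. PCR copies are collapsed by UMIs. On simulated counts, 82% of 2-fold changes were called for monocyte/macrophage-like against microglia-like cells (10378 genes) and 45.5% for day 13 against 0 (10375 genes). Of 1.5-fold changes, 39% and 2.86% were called in the same order. A fixed dispersion of 0.02 was used for every gene, which was not matched to the real libraries.

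Members and lists were chosen with earlier results of these data known. Full values are given for Psmb5, Psmb6 and Psmb7, for the highest member of each role and, per test, for up to 6 called members of largest change in each direction; a member given with values outside this rule (Psmd5, Psma5 and Psmb4 within days, Psmd7 and Psmb1 in neutrophil-like cells, Psmd14 by genotype) was chosen after its values were seen. Psma8 was tested only in the microglia-like and monocyte/macrophage-like fits and has no location here. Some genes of the pathway lists, and the tallies that count them, are not reported here.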

Additional observations from a re-analysis of the deposited data

Results flagged for a closer look

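In microglia-like cells the summed proteasome members were lower in the KO than in the WT library on day 0 (ratio 0.979), higher on day 13 (1.11) and lower again on day 21 (0.896). Days 0 and 13, and days 13 and 21, therefore pointed in opposite directions. The interval of day 0, for counting error only, ran from 0.959 to 0.999, with 15 of 34 members above 1 and 19 below. The difference between days was not tested, since each ratio sets 1 library against 1 library. Beside these ratios, the monocyte/macrophage markers of the same cells stood at 698 (WT) and 748 (KO) CPM on day 13 and at 488 (WT) and 273 (KO) on day 21. The microglia markers stood at 17084 (WT) and 13453 (KO) on day 13 and at 16634 (WT) and 26002 (KO) on day 21. The part of these levels in the ratios was not tested.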

How the results depend on the processing

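By DESeq2 the members called were 5 for day 13 against 0, 0 for day 21 against 0, 10 for conventional dendritic-like cells, 0 for cycling T-like cells and 0 for interferon-high cells, where edgeR gave 11, 2, 20, 18 and 5. Scaling by total UMIs gave 12 for day 21 against 0. Splitting on cells thinned to 1400 UMIs gave 3 for interferon-high cells, where adding both day 0 libraries, chosen after seeing the data, gave 1. Leaving out 1 library gave 0 to 0 for genotype in each of the 4 classes, 0 to 18, 0 to 8 and 0 to 11 for days 13 against 0, 21 against 0 and 21 against 13, 10 to 15 for T-like, 24 to 25 for monocyte/macrophage-like, 19 to 22 for neutrophil-like, 5 to 10 for B-like and 15 to 18 for conventional dendritic-like cells, 8 to 11 for cycling and 0 to 4 for interferon-high cells. Over all genes, omitting the low-count filter gave 88, 70, 77 and 42 genotype calls in microglia-like, T-like, monocyte/macrophage-like and neutrophil-like cells where the filtered fits gave 1, 26, 0 and 2, and 521 for day 21 against 13 where it gave 0. DESeq2 gave 1250, 651, 2135, 372 and 173 genes in the 5 comparisons of the first sentence, where edgeR gave 2734, 1130, 3503, 1249 and 595. For day 21 against 0, total UMIs gave 2054 genes and no filter 1937, and interferon-high cells split after thinning gave 304. The cause of these shifts was not tested. Leaving out 1 library changed both the number of libraries and which of them were present. The share of all genes passing in those fits is not given here, so their member counts cannot be set against it. In neutrophil-like cells, total UMI scaling reversed Psmd13 (-0.0730), Psmb5 (-0.229) and Psma6 (-0.265, log2). Of the other named gene values under an alternative, 455 kept their direction and side of the threshold and 87 kept the direction only. With 1 more class marker no conventional dendritic-like fit could be made, for lack of 50 cells per library. No paired analysis was possible because each genotype and day held 1 library, so that no replicate numbers could pair samples across groups; the pairing of classes by library and day as a block are part of the fits. Psmb11, at 0 UMIs, and Psma8, at 134, had the fewest counts of the members.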
